A study of Mus musculus with 18 samples.

Results

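The lysosomal genes described here are 34 of the 16545 genes in the deposited table: 7 membrane proteins of the lysosome, 10 cathepsins and other peptidases, 7 glycosidases, 5 lipid and fatty acyl hydrolases and sterol carriers, the activator precursor *Psap* with the growth factor *Grn*, and the 3 transcription factors *Tfeb*, *Tfe3* and *Mitf*. They were picked by name as well-known lysosomal genes, by a rule that uses no measured value but with earlier results of these data known, and all 34 had a row in the table. Purified B cells from the spleens of C57BL/6 mice were sequenced before culture and after 24 h and 48 h with LPS (lipopolysaccharide of the bacterial outer membrane, a ligand of the receptor TLR4 that drives B cells into division). Zbtb24 B-CKO mice (B-CKO) carried Zbtb24 loxp/loxp and a Cre allele active in B cells, which removes the exon of *Zbtb24* with the translation start from the pro-B stage on, and their littermate controls are stated to carry Cre with Zbtb24 +/+. Each of the 6 groups of genotype and time had 3 libraries, 1 per mouse, and the age and sex of these mice are not given in the sources used here. The comparisons address how the lysosomal genes behave during activation, and whether the loss of *Zbtb24* alters them.

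Lysosomes are acidic organelles in which hydrolases break down proteins, glycans and lipids delivered by endocytosis and autophagy. In B cells they also process antigen taken up through the B cell receptor, and cathepsin S cleaves the invariant chain so that peptide can load onto MHC class II molecules. The MiT/TFE factors TFEB, TFE3 and MITF bind E-box elements near many lysosomal genes, and in growing cells the kinase complex mTORC1 holds TFEB and TFE3 in the cytosol by phosphorylation.

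Because these factors recognise an E-box, the promoters of the members were searched for it. RefSeq (GRCm38.p6) gave 38 windows of 300 bases, from 250 bases before to 50 bases after an annotated start, for 30 of the 34 members, some of which have more than 1 start. *Npc1*, *Ctsb*, *Ctsh* and *Asah1* had none. The letters searched were CACGTG (6 bases, a palindrome and so the same on both strands) and TCACGTGA (8 bases), of which each match contains a match of the first. CACGTG was found in windows of 9 of the 30 members (30.0%), namely *Ctsa*, *Ctsd*, *Mcoln1*, *Lamp1*, *Glb1*, *Gaa*, *Lgmn*, *Ctsl* and *Gla*, compared with 1379 of the 13151 genes of the table with a window (10.5%). TCACGTGA was found for *Ctsa*, *Ctsd*, *Mcoln1* and *Gla*, 13.3% of the members, and for 1.79% of the genes. The pieces below hold matches before a start of 8 of these members, from RefSeq on GRCm38.p6 and on the strand of the gene, with CACGTG in capitals. They are shown because several of these genes are followed through the results, and because *Lamp1* holds 4 matches before its start. *Mcoln1*, *Gla* and *Ctsd* hold 2 each there, of which that of *Ctsd* from 245 to 240 bases before the start is not printed. *Ctsa* holds 1 before its start and a further match after it, which is not printed. For *Ctsa*, *Lgmn* and *Ctsl* the window with the match belongs to a start inside the gene, and the match lies within the annotated gene span. A match is only the presence of these letters.
Lamp1, chr8:13159090-13159160 (+): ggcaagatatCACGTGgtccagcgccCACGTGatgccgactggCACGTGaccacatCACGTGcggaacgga
Mcoln1, chr8:3500438-3500489 (+): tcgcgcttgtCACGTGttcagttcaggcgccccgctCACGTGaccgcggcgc
Ctsd, chr7:142387910-142387935 (-): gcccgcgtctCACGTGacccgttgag
Ctsa, chr2:164833751-164833772 (+): agcaaactgtCACGTGatgcag
Lgmn, chr12:102439126-102439151 (-): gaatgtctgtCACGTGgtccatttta
Gla, chrX:134601184-134601242 (-): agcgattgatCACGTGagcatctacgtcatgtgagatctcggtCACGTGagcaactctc
Glb1, chr9:114401020-114401045 (+): gcttctgagtCACGTGgcctacagag
Gaa, chr11:119267813-119267838 (+): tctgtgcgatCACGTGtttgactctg

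Values are FPKM, which counts the fragments of a gene relative to its transcript length and to the size of the library, so levels can be compared between genes. The fragments behind a value are not given in the table, and the members were therefore not given counting intervals. *Zbtb24* itself was between 37.05 and 49.62 FPKM in control and between 10.53 and 14.33 FPKM in B-CKO libraries at 0 h (27.5% of the control mean). At 24 h and 48 h the B-CKO means were 62.0% and 68.6% of control, without overlap between the genotypes. The 12 B cell markers examined summed to between 5040 and 6652 FPKM at 0 h and between 2449 and 3127 FPKM in LPS. The 18 macrophage and monocyte markers summed to at most 17.9 FPKM in any library.

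At 0 h most members were well expressed, and the summed FPKM of all 34 was 2625 ± 36.1 (SD, n = 3) in control and 2594 ± 71.5 in B-CKO mice. In control cells 5 members had a mean of 100 FPKM or more, 26 lay between 10 and 100 FPKM, *Ctsl* (cathepsin L, a cysteine protease) had 3.09 ± 0.803 FPKM, and *Cd63* and *Mitf* were under 1 FPKM. The order of the highest levels was *Laptm5* (588.9 ± 74.5 FPKM, a lysosomal membrane protein of blood cells), *Psap* (422.5 ± 18 FPKM, the precursor of the saposins that present lipids to hydrolases), *Ctss* (340.7 ± 26.6 FPKM, cathepsin S), *Ctsz* (189.8 ± 34.2 FPKM, the carboxypeptidase cathepsin Z) and *Ctsh* (170.8 ± 12.4 FPKM, the aminopeptidase cathepsin H). The libraries of each of these genes lay above those of the next, except that *Ctsz* and *Ctsh* overlapped. *Laptm5*, *Psap*, *Ctss* and *Ctsz* together made up 58.7% of the summed level of the members. *Tfeb* (71.6 ± 11.2 FPKM) was the most abundant MiT/TFE factor, above *Tfe3* (14.5 ± 0.509 FPKM) in every library.

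Libraries of the same number varied together at 0 h. For *Gla* (alpha-galactosidase A, which cleaves globotriaosylceramide), control replicates 1, 2 and 3 had 17.0, 47.77 and 82.62 FPKM, and B-CKO replicates had 16.16, 44.65 and 71.27 FPKM. The order of the numbers was therefore the same in both genotypes, with a highest value 4.86 times and 4.41 times the lowest. Among the 32 members with at least 1 FPKM in every 0 h library, 18 (56.2%) had the same order of numbers in both genotypes, compared with 47.1% of 9551 genes. Only *Gla* and *Ctsl* spread by 1.5-fold or more in both genotypes (6.25% of these members, and 14.2% of the genes). The median SD of the members on the log2 scale was 0.14 in control and 0.15 in B-CKO libraries at 0 h, and between 0.05 and 0.08 in LPS.

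**Figure D1:**
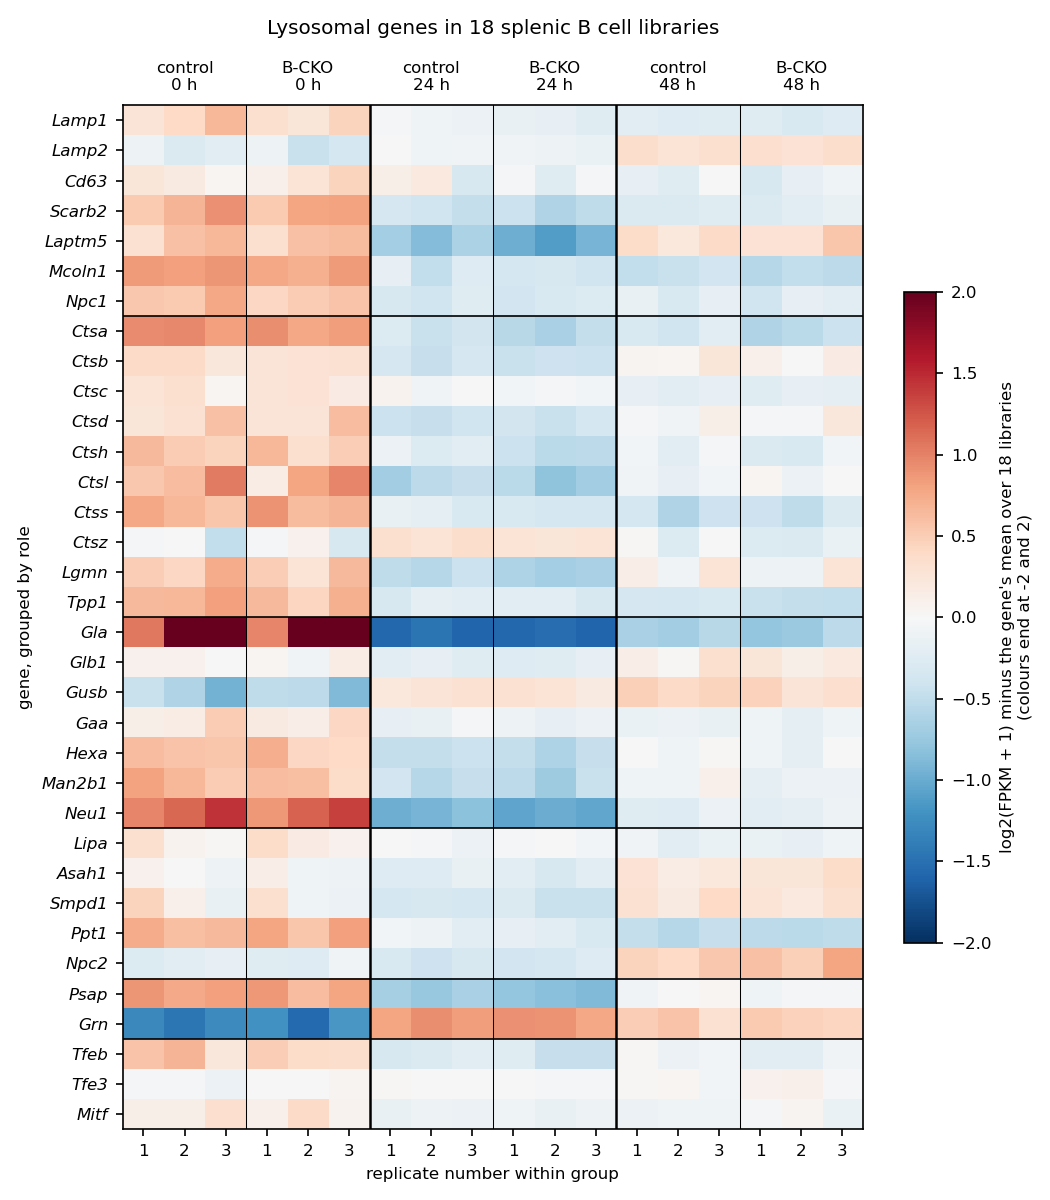
Heat map of log2(FPKM + 1) of the 34 members (rows, ordered by role) in each of the 18 libraries (columns, by genotype and hours in LPS). Each value is drawn as the difference from the mean of the gene over the 18 libraries. Most rows are lower at 24 h than at 0 h in both genotypes and partly return at 48 h. *Grn* and *Gusb* are higher at both times than at 0 h.

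The heat map of the members shows the course that most of them took. Between 0 h and 24 h of LPS, 25 of the 34 members fell in control cells and 3 rose, by limma on log2(FPKM + 1) with an adjusted p under 0.05. Over all 15531 genes tested, 30.7% fell and 26.7% rose. The median change of the members was -0.76 on the log2 scale, while that of all genes was -0.02, and 29 of 34 members (85.3%) had a change below 0, compared with 56.6% of all genes. The summed FPKM of the members was 1615 ± 38.7 at 24 h, compared with 2625 ± 36.1 at 0 h. In whole-culture RNA, fewer cells of a type and less RNA per cell cannot be told apart. Marker genes of other cells also fell in control cells over this interval, namely all 12 T cell, 8 of 9 NK cell and 12 of 18 macrophage and monocyte markers (2 of the last rose), as did 10 of 12 B cell markers. The summed level went from between 29.28 and 43.67 to between 14.62 and 16.92 FPKM for T cell markers, from between 9.73 and 16.33 to between 0.70 and 0.79 FPKM for NK cell markers, and from between 9.36 and 17.21 to between 6.6 and 8.43 FPKM for macrophage and monocyte markers. The dendritic cell markers went the other way in their sum, from between 22.82 and 33.71 to between 99.8 and 114.29 FPKM. Of these 9 markers 3 were higher and 3 lower, and 2 of 11 neutrophil markers fell. Of 7 erythroid markers 4 fell and 1 rose, and the erythroid sum went from between 15.12 and 37.71 to between 8.37 and 11.59 FPKM. Of 8 plasma cell markers 3 fell and 3 rose. The plasma cell sum went from between 261.05 and 428.94 to between 152.53 and 172.25 FPKM. The part of these in the result was not tested. The p-values set a change against the spread between the 3 mice of each group, which limma moderates by the spread of all genes. At 0 h this spread in part follows the replicate number. Whether the same mice gave both times is not given.

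Of the 7 membrane proteins, 5 fell and none rose at 24 h, with a median of -0.93. *Laptm5* had 505.71, 611.45 and 649.43 FPKM in the control libraries at 0 h and 253.91, 222.29 and 263.4 FPKM at 24 h. No 24 h library reached the lowest 0 h library, and the change was -1.25 ± 0.11 on the log2 scale (SE, limma adjusted p = 0.00018). *Mcoln1* (mucolipin, a calcium channel) fell by 1.15, *Scarb2* (LIMP-2, the carrier of glucocerebrosidase) fell by 1.11 and *Npc1* (which exports cholesterol) fell by 0.93. *Lamp1*, a major glycoprotein of the lysosomal membrane, had 76.36, 84.13 and 102.06 FPKM at 0 h and 62.05, 59.98 and 58.63 FPKM at 24 h. It fell by 0.52 ± 0.11 (adjusted p = 0.0065), a smaller change than those of the other called membrane proteins, and the call was lost when replicate 2 was left out. *Lamp2*, its paralog with a role in chaperone-mediated autophagy, did not pass the test, at 0.15 ± 0.07 (adjusted p = 0.12). *Cd63*, a tetraspanin of late endosomes, had at most 0.49 FPKM in the control libraries and was listed at 0 in control replicate 3 at 24 h, with a change of -0.16 that did not pass.

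Among the 10 peptidases, 8 fell and *Ctsz* rose, with a median of -0.84. *Ctsl* had 2.53, 2.73 and 4.01 FPKM at 0 h and 0.51, 0.69 and 0.76 FPKM at 24 h, a change of -1.29 ± 0.15 (adjusted p = 0.00052) that the pseudocount of 1 FPKM makes smaller at such levels. *Ctsa* (the protective protein of neuraminidase and beta-galactosidase) had 81.05, 82.34 and 74.41 FPKM at 0 h and 34.26, 30.44 and 32.16 FPKM at 24 h, and fell by 1.27 ± 0.07. These 2 genes fell the most of the peptidases. *Lgmn* (legumain, an asparaginyl endopeptidase that activates cathepsins) fell by 1.05, *Tpp1* (tripeptidyl peptidase) fell by 0.96 and *Ctss* fell by 0.88. *Ctsd* (the main aspartic protease of the lysosome) fell by 0.81, *Ctsh* fell by 0.74 and *Ctsb* (cathepsin B) fell by 0.71. *Ctsc*, which activates granule serine proteases, had a change of -0.22 that did not pass (adjusted p = 0.081). *Ctsz* went the other way, from 207.9, 211.2 and 150.38 FPKM at 0 h to 264.16, 256.95 and 269.84 FPKM at 24 h (0.49 ± 0.14, adjusted p = 0.021). Its 3 libraries at 24 h were all above those at 0 h, and it became the most abundant member, but the call was lost when the values were rescaled to TPM (0.32, adjusted p = 0.062) and when any library of 24 h was left out (adjusted p between 0.057 and 0.068), as it was without replicate 1 or replicate 2.

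Of the 7 glycosidases, 6 fell and *Gusb* rose, with a median of -1.04. *Gla* dropped from the 17.0 to 82.62 FPKM given above to 1.92, 2.15 and 1.91 FPKM, that is to 4.06% of its mean at 0 h. Its change of -3.81 ± 0.53 (adjusted p = 0.0011) was the largest of the 34 members, and it lay between -4.42 and -3.29 over all 17 alternatives. *Neu1* (the lysosomal sialidase, which needs *Ctsa* for its activity) had 24.69, 28.03 and 34.86 FPKM at 0 h and 5.69, 5.87 and 6.4 FPKM at 24 h (-2.10 ± 0.13, adjusted p = 4e-05). All libraries of 24 h were far below those of 0 h for both genes. *Man2b1* (alpha-mannosidase) fell by 1.12, *Hexa* (the alpha chain of hexosaminidase A) fell by 1.04, *Gaa* (acid alpha-glucosidase) fell by 0.37 and *Glb1* (beta-galactosidase) fell by 0.26. Of 17 alternatives, 11 kept the call of *Gaa* and 12 that of *Glb1*, and both were lost without control replicate 1 or 3 of 24 h and without number 1 or 2 at both times. *Gaa* also lost its call without control replicate 2 of 24 h and under median ratio scaling, and *Glb1* under the replicate block. *Gusb* (beta-glucuronidase) had 20.17, 18.09 and 13.91 FPKM at 0 h and 32.42, 33.55 and 34.42 FPKM at 24 h. It rose by 0.92 ± 0.13 (adjusted p = 0.0013), to 1.92 times its mean at 0 h.

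Of the 5 lipid hydrolases and sterol carriers, 3 fell and none rose, with a median of -0.22. *Ppt1* (which removes palmitate from proteins) fell by 0.78 ± 0.07 (adjusted p = 0.00017), from 34.08, 30.67 and 31.87 FPKM to 19.12, 18.63 and 17.18 FPKM. *Smpd1* (acid sphingomyelinase) fell by 0.47 and *Asah1* (acid ceramidase) fell by 0.22, and 11 and 8 of 17 alternatives kept these calls, which were lost mainly when a library was left out. *Lipa* (acid lipase) and *Npc2* (a soluble cholesterol carrier) had changes of -0.19 and -0.13 that did not pass.

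*Psap* and *Grn* were abundant genes that moved in opposite directions. *Psap* had 440.25, 404.17 and 423.22 FPKM at 0 h and 151.05, 140.42 and 152.41 FPKM at 24 h (-1.51 ± 0.06, adjusted p = 9.1e-06), which is 35.0% of its earlier mean. *Grn* (progranulin, a secreted growth factor that is also carried to the lysosome and cut into granulins there) had 35.14, 31.13 and 35.45 FPKM at 0 h and 150.95, 165.93 and 156.22 FPKM at 24 h. It rose by 2.19 ± 0.07 (adjusted p = 6.5e-06), or 4.65-fold, the largest rise of the members. Among the transcription factors, *Tfeb* fell by 0.78 ± 0.12 (adjusted p = 0.0017), from 75.18, 80.55 and 59.0 FPKM to 40.07, 40.61 and 42.46 FPKM. *Tfe3* had 14.85, 14.63 and 13.88 FPKM at 0 h and 15.41, 15.02 and 15.28 FPKM at 24 h, a difference of 0.07 ± 0.06 (adjusted p = 0.38). *Mitf* fell by 0.31 ± 0.07 (adjusted p = 0.0068) at very low levels, from 0.28, 0.28 and 0.5 FPKM to 0.07, 0.1 and 0.09 FPKM.

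**Figure D2:**
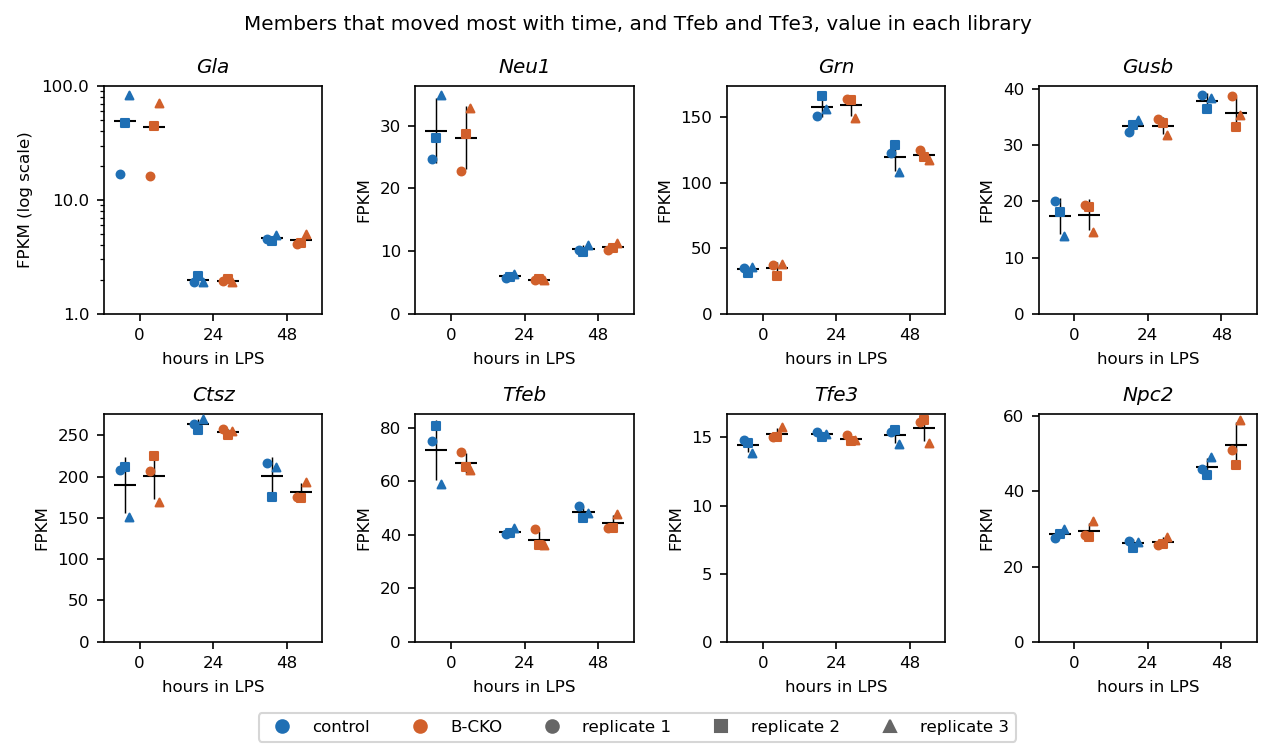
FPKM of 8 members (*Gla* on a log axis, the others on linear axes from 0) against hours in LPS, for control and B-CKO libraries. Symbols mark the replicate numbers and horizontal lines the means. Vertical lines show the SD (n = 3) in all panels but that of *Gla*. *Gla* spread from 16.16 to 82.62 FPKM over the 6 libraries at 0 h and was between 1.91 and 2.15 FPKM in all 6 at 24 h, while *Grn* rose from at most 38.16 to at least 149.72 FPKM.

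All 9 members with a CACGTG match in the promoter window fell between 0 h and 24 h, with a median of -1.05. The calls of *Lamp1*, *Glb1* and *Gaa* were lost without replicate 2, as were those of *Ctsz* and *Smpd1*, which have no match. Of the 21 members with a window and no match, 12 fell (57.1%) and 3 rose, with a median of -0.47. Over all genes of the table, 31.6% of 1330 genes with a match fell, and 30.5% of 11024 genes without a match did, with medians of -0.01 and -0.02. No test was made of the difference between the members with and without a match.

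Between 24 h and 48 h many of the same genes came back up. In control cells 17 members rose and 6 fell, compared with 20.1% and 24.8% of the 15178 genes tested, and the median change was 0.15 for the members and -0.0047 for all genes. Of the 7 glycosidases, 6 rose and none fell, with a median of 0.44. Of the 5 lipid hydrolases and sterol carriers, 3 rose and 1 fell, also with a median of 0.44. *Laptm5* went from 253.91, 222.29 and 263.4 FPKM to 528.68, 469.87 and 533.6 FPKM (1.05 ± 0.08, adjusted p = 0.00012), the largest rise in this interval on the scale with a pseudocount of 1 FPKM. *Gla* went to 4.53, 4.36 and 4.92 FPKM (0.90 ± 0.07, adjusted p = 0.00013), still 9.37% of its starting mean. With a pseudocount of 0.1 FPKM, *Gla* rose more (1.17) than *Laptm5* (1.05), and as a ratio of means the rises were 2.31-fold and 2.07-fold. This call was lost in a joint fit of the 18 libraries (adjusted p = 0.18). Of 8 plasma cell markers, 7 rose and none fell between 24 h and 48 h in control cells, with a median of 1.06. Their summed level went from between 152.53 and 172.25 to between 229.74 and 372.31 FPKM. In B-CKO cells 5 of them rose and 1 fell, with a median of 1.19. Of 12 B cell markers, 4 rose and 4 fell in control cells. The part of these markers in the result was not tested.

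*Npc2*, whose change of -0.13 in the first interval passed only after rescaling to TPM (-0.30, adjusted p = 0.011), rose in the second, with 26.91, 24.98 and 26.63 FPKM at 24 h and 45.9, 44.34 and 49.22 FPKM at 48 h (0.80 ± 0.05, adjusted p = 6.2e-05). *Neu1* rose by 0.70 to 10.13, 9.93 and 11.05 FPKM. *Psap* rose by 0.68, *Smpd1* by 0.63, *Lgmn* by 0.61, *Ctsb* by 0.49 and *Ctsl* by 0.46. *Man2b1*, *Hexa*, *Asah1* and *Ctsd* each rose by 0.44, *Glb1* by 0.37 and *Lamp2* by 0.36. *Tfeb* rose by 0.23 ± 0.04 (adjusted p = 0.0046) to 50.78, 46.32 and 47.97 FPKM, and *Gusb* rose by 0.18. Like *Npc2*, *Lamp2* had not passed the test in the first interval. Of the alternatives, 14 of 17 kept the call of *Gusb*, 15 of 17 that of *Glb1*, 16 of 17 that of *Tfeb* and 14 of 15 that of *Ctsl*. *Tfe3* (15.4, 15.57 and 14.53 FPKM) and *Mitf* (0.09, 0.12 and 0.12 FPKM) did not pass the test.

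The 6 members that fell in this interval had not all fallen before. *Grn* and *Ctsz*, which had risen by 24 h, each fell by 0.40, and at 48 h *Grn* had 122.69, 128.94 and 107.88 FPKM and *Ctsz* had 216.34, 174.89 and 211.66 FPKM. *Ppt1* fell further, by 0.38 ± 0.05 (adjusted p = 0.0014), to 14.05, 13.12 and 14.22 FPKM. *Ctss* fell by 0.24 to 167.64, 140.67 and 161.17 FPKM, a call that was lost under the replicate block, under median ratio scaling and in 7 further fits that each left something out. *Ctsc* fell by 0.18 and *Lamp1* fell by 0.16, to 54.24, 53.25 and 53.45 FPKM, and 13 and 15 of 17 alternatives kept these calls.

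Over the whole 48 h, 22 members were lower and 5 higher than at 0 h in control cells, while 30.3% of 15584 genes were lower and 26.5% higher. This comparison shares its libraries with the other intervals. The 5 higher members were *Grn* (1.79), *Gusb* (1.10), *Npc2* (0.67), *Lamp2* (0.51) and *Asah1* (0.23). The call of *Asah1* held in 6 of 17 alternatives, where its change went down to 0.027 (adjusted p = 0.78), and was lost under TPM and under the replicate block. *Laptm5* was at -0.20 ± 0.11 (adjusted p = 0.18) and passed in 2 of 17 alternatives. No peptidase was higher and 8 of 10 were lower, with *Ctsa* at -1.22, *Ctss* at -1.12 and *Tpp1* at -1.05. Of the other lower peptidases, *Ctsd*, *Lgmn* and *Ctsc* kept their calls in 11, 13 and 15 of 17 alternatives. *Tfeb* was 0.55 ± 0.12 lower (adjusted p = 0.0081), a call that was lost without replicate 1 and without replicate 2.

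**Figure D3:**
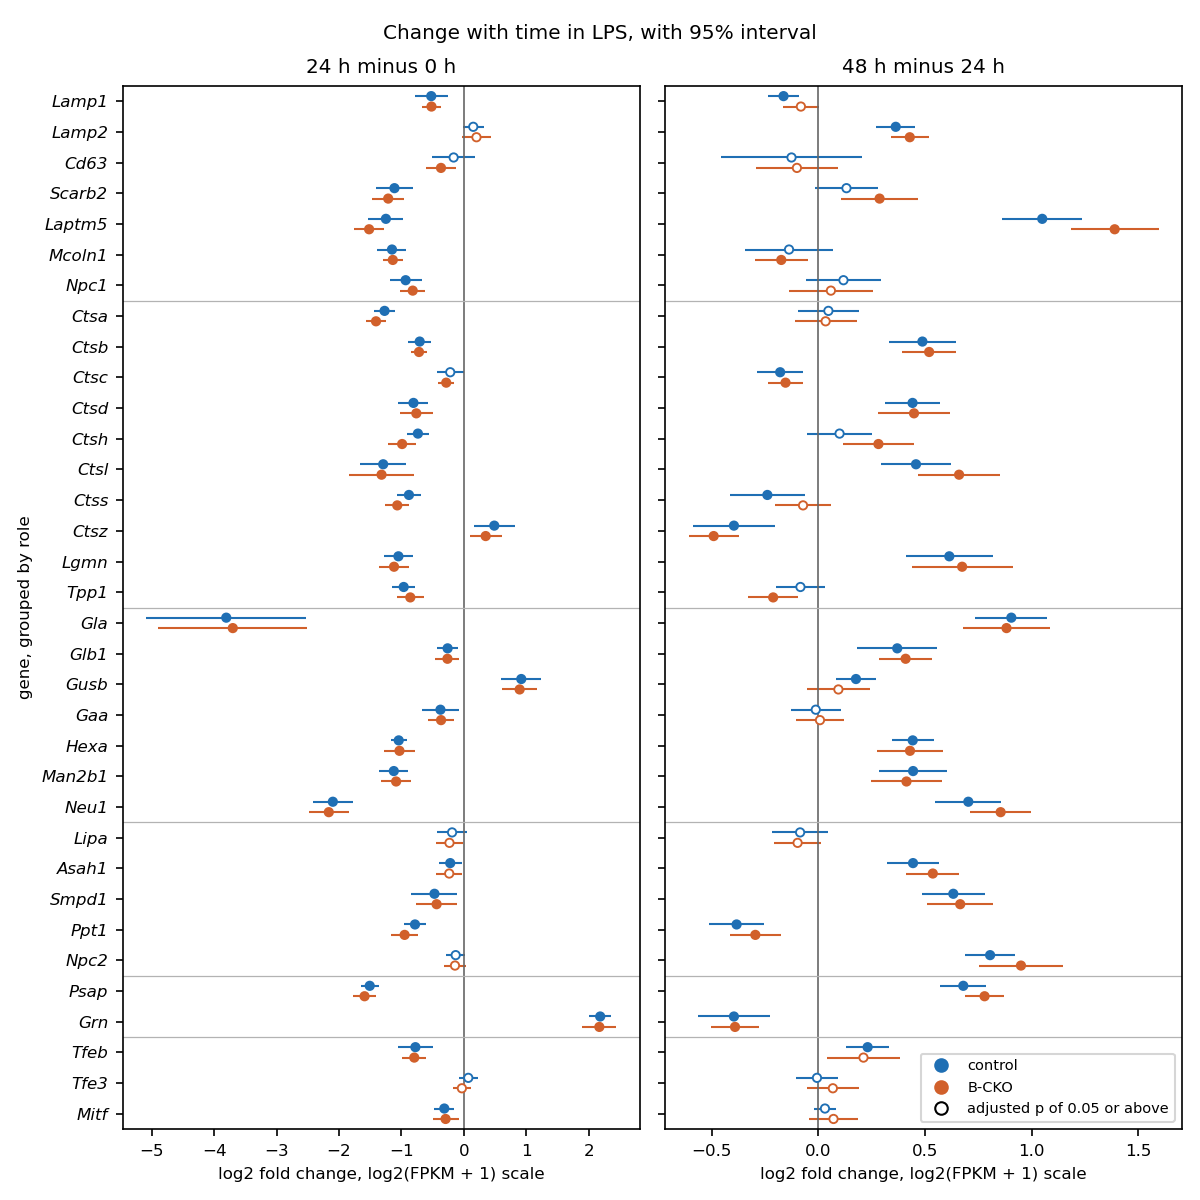
Change of each of the 34 members on the log2(FPKM + 1) scale from 0 h to 24 h and from 24 h to 48 h, in control and B-CKO cells, with 95% intervals from limma. Changes of the 2 genotypes lie close together for most members, with *Gla* lowest (-3.81 and -3.70) and *Grn* highest (2.19 and 2.17) in the first interval.

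B-CKO cells went through a similar course, as the plot of changes by interval shows. From 0 h to 24 h, 26 members fell and 3 rose (32.3% and 27.5% of 15551 genes), with a median of -0.78. Of the members that fell, 24 did so in both genotypes, which is 96.0% of those in control and 92.3% of those in B-CKO cells (89.8% and 85.2% over all genes), and *Grn*, *Gusb* and *Ctsz* rose in both, *Ctsz* with 10 of 17 alternatives in B-CKO cells. From 24 h to 48 h, 17 rose and 6 fell (21.7% and 24% of 15253 genes), with a median of 0.25, and 15 of the 17 that rose were shared (88.2% of each), compared with 83.8% of the control and 77.5% of the B-CKO calls over all genes. Of the 6 that fell, 4 were shared (66.7% of each), compared with 82.6% and 84.9% over all genes, with *Ctss* and *Lamp1* passing in control cells only and *Mcoln1* and *Tpp1* in B-CKO cells only. These differences between genotypes were not called in the test of the difference given below. *Ctsh* and *Scarb2* passed the test in B-CKO and not in control cells, and *Gusb* and *Tfeb* the reverse, although *Tfeb* changed by 0.23 in control and by 0.21 in B-CKO cells (adjusted p = 0.052). The calls of *Ctsh* and *Scarb2* held in 12 of 17 alternatives each. In B-CKO cells the call of *Mcoln1* held in 8 and that of *Tpp1* in 15 of 17 alternatives. Over 48 h, 22 members were lower and 5 were higher than at 0 h in B-CKO cells (30.7% and 27% of 15695 genes), and 20 of the lower ones (90.9% of each, compared with 89.8% and 88.2% over all genes) and all 5 higher ones were shared, although *Asah1* passed in 8 of 17 alternatives in B-CKO cells.

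The course of the largest changes can be followed in the B-CKO libraries. *Grn* had 37.09, 28.87 and 38.16 FPKM at 0 h, 163.77, 163.27 and 149.72 FPKM at 24 h and 125.21, 119.77 and 117.71 FPKM at 48 h. *Laptm5* had 510.26, 610.87 and 629.59 FPKM, then 205.99, 188.03 and 213.76 FPKM, then 500.0, 498.74 and 601.48 FPKM. As in control cells, the 24 h libraries stood apart from those before and after for both genes. *Neu1* fell by 2.16 and then rose by 0.85, *Gla* fell by 3.70 and then rose by 0.88, and *Psap* fell by 1.59 and then rose by 0.78.

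Whether these courses differed was tested as the difference of the 2 changes. No member and no gene passed (adjusted p) for 24 h minus 0 h, 48 h minus 24 h or 48 h minus 0 h, that is 0% of 16182, 15844 and 16257 genes. The member with the smallest p was *Laptm5* between 24 h and 48 h, where the rise in B-CKO cells was larger by 0.34 on the log2 scale (95% interval 0.06 to 0.62, limma unadjusted p = 0.022, adjusted p = 0.62). It was the only member with an unadjusted p under 0.05 in that contrast (2.94% of members, compared with 7.31% of all genes).

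Before culture, the genotypes did not differ detectably in any member. No gene passed the adjusted test at 0 h (0% of 15641 genes), and no member had an unadjusted p under 0.05, compared with 0.901% of genes higher and 1.1% of genes lower in B-CKO. The median difference of the members was -0.027, and it was -0.011 without control replicate 3, -0.045 without control replicate 1, -0.053 without B-CKO replicate 3, -0.015 without number 2 in both genotypes and -0.012 under median ratio scaling. *Tfe3* alone had no overlap between the genotypes, at 15, 15 and 15.76 FPKM in B-CKO and 14.85, 14.63 and 13.88 FPKM in control (0.07, adjusted p = 1.0), where 1.92% of all genes were higher and 1.94% lower without overlap. The spread at 0 h was wide for some members, so that the interval of *Gla* ran from -1.85 to 1.60 without regard to the replicate number. Since the numbers pair the 0 h samples, the fit with the number as a block was also made, in which the interval of *Gla* was -0.25 to 0.0048 and no member passed the adjusted test. In that fit *Man2b1* alone had an unadjusted p under 0.05 (-0.13, limma unadjusted p = 0.044, adjusted p = 0.87), compared with 2.99% of all genes lower and 2.71% higher. *Gla*, *Man2b1*, *Tpp1*, *Lamp2*, *Npc1*, *Mcoln1* and *Psap* were lower in B-CKO in all 3 pairs (7 of 34 members, 20.6%) and *Lipa* and *Tfe3* higher (5.88%), compared with 11.4% and 10.2% of all genes.

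At 24 h the lysosomal genes tended to lie lower in B-CKO cells, by small amounts that did not pass the adjusted test. No member was called, and 15 of 15104 genes (0.0993%) were. Of the 34 members, 28 (82.4%) had a lower mean log2 value in B-CKO, compared with 52.6% of all genes, and the median difference was -0.05 (all genes -0.0046). Under median ratio scaling 24 members were lower, with a median of -0.033, and 46.3% of all genes, with a median of 0.0039. Under TPM 30 members and 57.3% of all genes were lower, with medians of -0.067 and -0.011. With an unadjusted p under 0.05, 7 members were lower (20.6%) and none was higher, compared with 9.51% and 6.79% of all genes. Without overlap, 7 members were lower (20.6%) and none was higher, compared with 11.7% and 8.43% of all genes. The summed FPKM of the members was 1641, 1571 and 1634 in control and 1528, 1465 and 1487 in B-CKO libraries, which did not overlap. *Ctsz*, *Laptm5*, *Ctss* and *Grn* made up 52.8% of this sum in control and 52.6% in B-CKO cells. Of these, *Laptm5* differed most (means of 246.5 and 202.6 FPKM), while *Grn* had 157.7 and 158.9 FPKM. At the other times the share of members with a lower mean log2 value in B-CKO was smaller. It was 23 of 34 at 0 h (67.6%, all genes 51.3%) and 19 of 34 at 48 h (55.9%, all genes 54.2%).

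*Ctsh* had the smallest p, with 108.3, 96.79 and 101.2 FPKM in control and 87.46, 80.46 and 81.92 FPKM in B-CKO libraries at 24 h. The B-CKO mean was 81.6% of control, a difference of -0.29 (95% interval -0.41 to -0.17, limma unadjusted p = 0.00072, adjusted p = 0.083). *Laptm5*, whose libraries are given above, was at 82.2% of control (-0.28, interval -0.46 to -0.10, adjusted p = 0.15). All 3 B-CKO libraries were below all 3 control libraries for both genes. With only genes of a mean of at least 1 FPKM, *Laptm5* and *Ctsh* passed among the 31 members tested, where 388 of 9711 genes (4%) did, and their differences stayed between -0.33 and -0.25 for *Ctsh* and between -0.35 and -0.23 for *Laptm5* over 17 alternatives.

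The other members without overlap at 24 h differed less. *Ctsa* had 34.26, 30.44 and 32.16 FPKM in control and 28.12, 26.16 and 29.54 FPKM in B-CKO libraries (86.5% of control, -0.20, interval -0.34 to -0.07, adjusted p = 0.17). *Lgmn* had 40.39, 38.64 and 42.67 FPKM in control and 37.2, 35.76 and 36.53 FPKM in B-CKO libraries (-0.15, adjusted p = 0.15). Legumain and the protective protein thus lay at 90.0% and 86.5% of control. *Psap* had 139.47, 133.99 and 129.63 FPKM in B-CKO libraries, below all control libraries (-0.14, adjusted p = 0.18). *Lamp1* had 57.21, 56.81 and 54.02 FPKM in B-CKO libraries, at 93.0% of control (-0.10, adjusted p = 0.20). *Neu1* was also without overlap, at -0.12 (unadjusted p = 0.079). *Ctss* had an unadjusted p of 0.032 (-0.12, adjusted p = 0.25), but control replicate 3 (172.94 FPKM) lay below B-CKO replicate 1 (173.74 FPKM). *Grn* (0.01), *Gla* (-0.02), *Tfe3* (-0.03) and *Tfeb* (-0.11) had adjusted p of 0.44 or more.

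**Figure D4:**
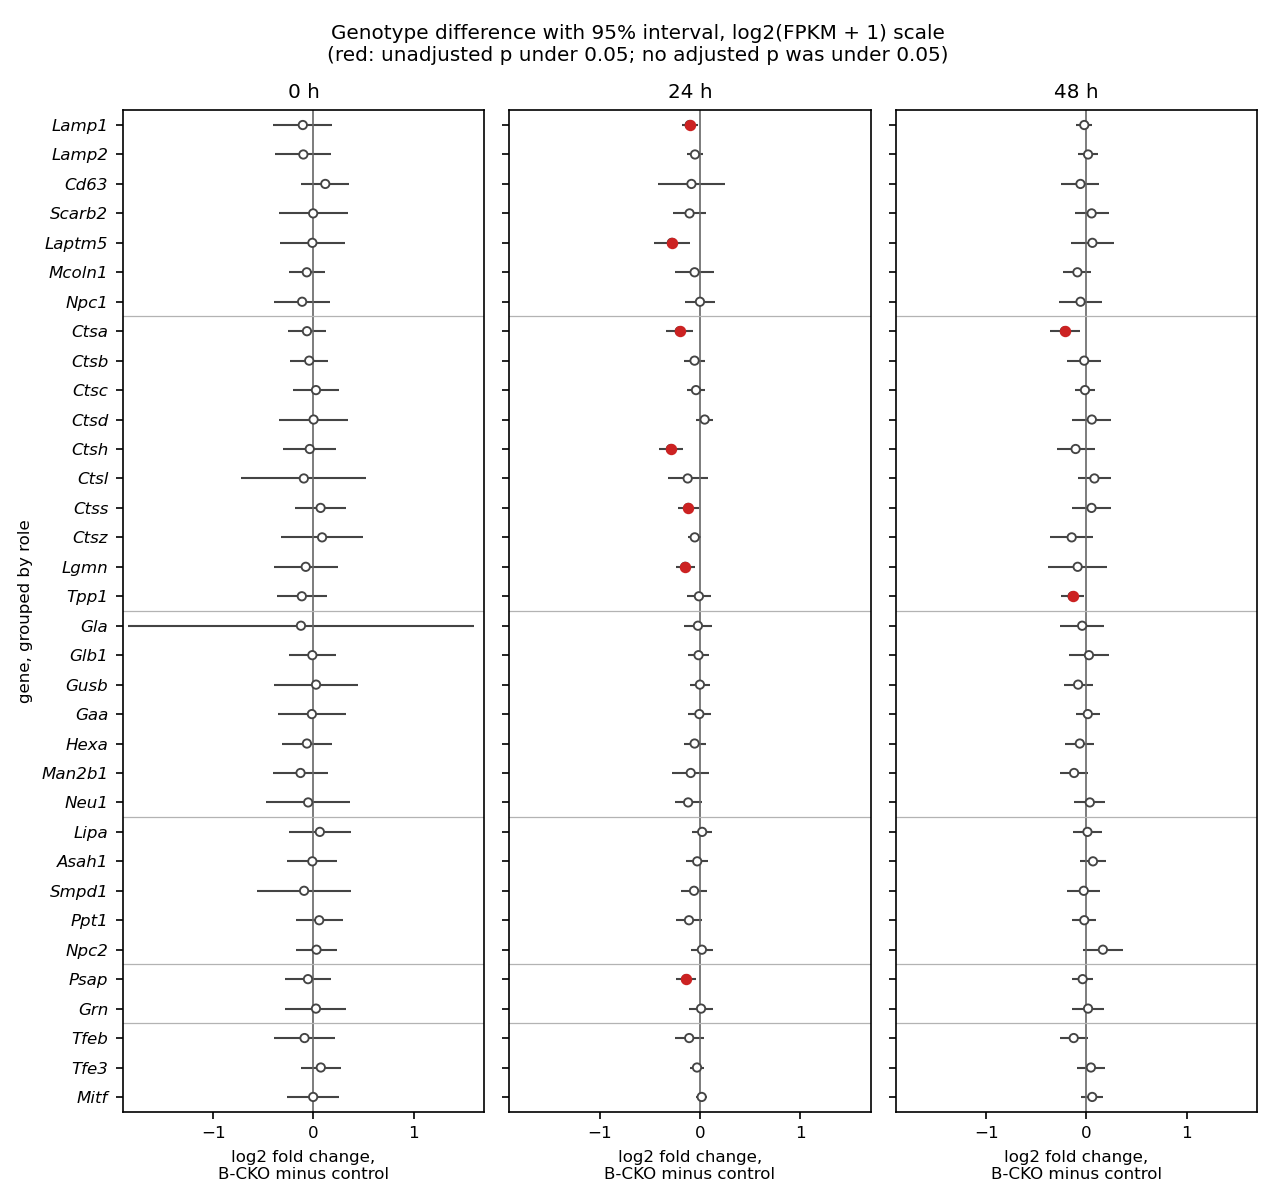
Difference between B-CKO and control for each of the 34 members at 0 h, 24 h and 48 h on the log2(FPKM + 1) scale, with 95% intervals from limma. At 24 h, 28 of 34 points lie below 0, down to -0.29 for *Ctsh*, and the intervals at 0 h are wider than at the later times.

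**Figure D5:**
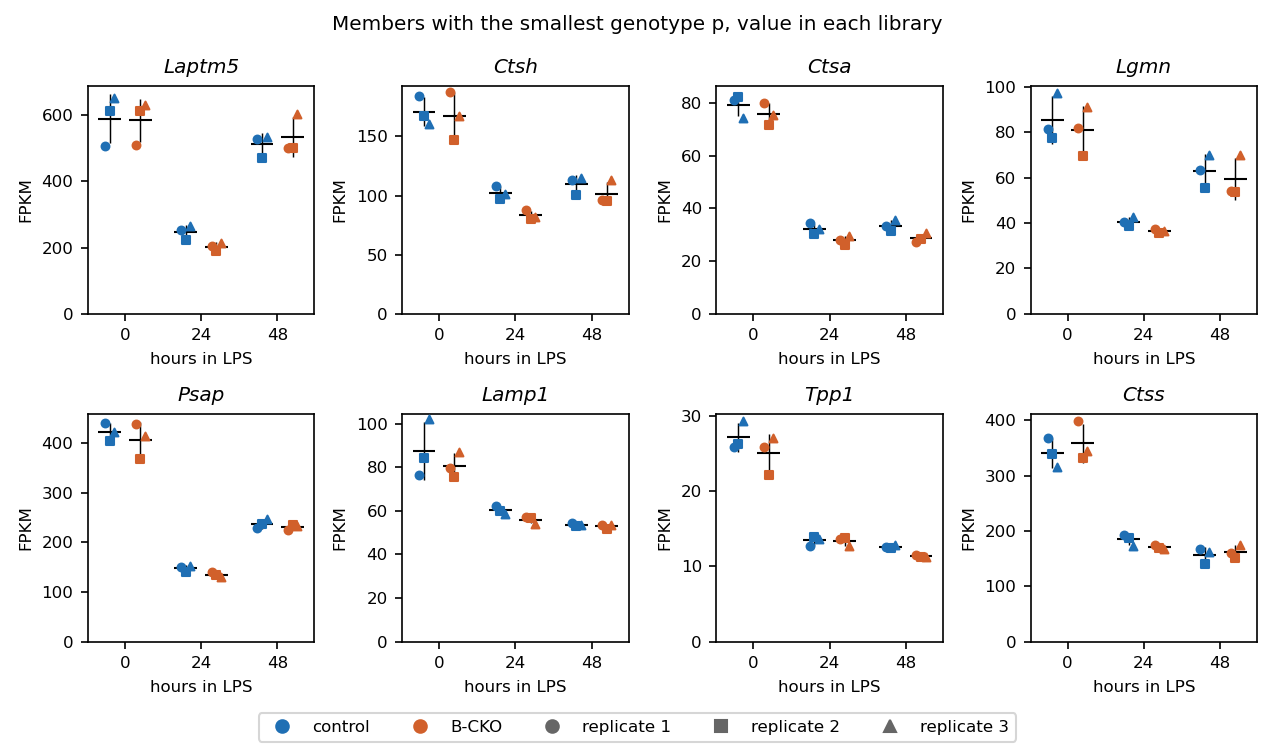
FPKM of 8 members against hours in LPS in each control and B-CKO library, with symbols for replicate numbers, horizontal lines for means and vertical lines for SD (n = 3), on axes from 0. The genotypes separate at 24 h for *Laptm5* and *Ctsh*, and their difference is small next to the change from 0 h to 24 h.

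The plot of differences by genotype shows the difference of each member with its interval. The plot of the members with the smallest p shows their values in every library. Other measures moved with the genotype at 24 h. All 12 B cell markers had a lower mean log2 value in B-CKO at 24 h, with a median of -0.14. Of these, 1 passed the adjusted test, and 7 had an unadjusted p under 0.05. Their summed FPKM was between 2449 and 2541 in B-CKO and between 2792 and 3021 in control libraries. This sum includes a gene that bears on the check of the genotypes and is not reported here. The 18 macrophage and monocyte markers summed to between 5.64 and 5.95 FPKM in B-CKO and between 6.6 and 8.43 FPKM in control libraries, with *C1qa*, *C1qc* and *Vcam1* at 0 in all of them. The 12 T cell markers summed to between 11.81 and 13.39 FPKM in B-CKO and between 14.62 and 16.92 FPKM in control libraries. The sums of the dendritic cell, neutrophil, NK cell and erythroid markers overlapped between the genotypes at 24 h. The part of these in the result was not tested. *Ctsa* shares 13.5% of its exonic bases with *Pltp* and 8.82% with *Neurl2*, both on the other strand. How strand was treated in the counting is not stated. At 24 h *Pltp* had 3.99, 2.78 and 3.35 FPKM in control and 1.92, 1.81 and 2.85 FPKM in B-CKO libraries. At 48 h it had 5.3, 5.04 and 7.29 FPKM in control and 3.51, 3.26 and 5.15 FPKM in B-CKO libraries. *Neurl2* overlapped between the genotypes at both times. The part of these neighbours in the values of *Ctsa* was not tested. Other members also share exonic bases with a neighbour, up to 31.5% for *Ctsd* (with Gm49369, on the same strand), 28.2% for *Ctsl* (with Gm47123, on the other strand) and 16.3% for *Ctsb* (with *Fdft1*, on the other strand). *Fdft1* had 4.56, 3.93 and 3.16 FPKM at 0 h, 19.85, 17.94 and 20.44 FPKM at 24 h and 30.44, 33.55 and 31.85 FPKM at 48 h in control cells, and was thus higher at each later time, while *Ctsb* fell by 0.71 and then rose by 0.49.

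At 48 h fewer members lay apart. No member was called, and 7 of 15210 genes (0.046%) were. With an unadjusted p under 0.05, 2 members (5.88%) were lower and none higher, compared with 4.14% and 3.57% of all genes, and 3 (8.82%) were lower without overlap, compared with 6.24% lower and 4.89% higher. *Ctsa* had 33.46, 31.27 and 35.43 FPKM in control and 27.1, 28.23 and 30.54 FPKM in B-CKO libraries (85.7% of control, -0.22, interval -0.36 to -0.07, limma unadjusted p = 0.012, adjusted p = 0.44). *Tpp1* had 12.51, 12.42 and 12.84 FPKM in control and 11.54, 11.29 and 11.21 FPKM in B-CKO libraries (90.1% of control, -0.14, adjusted p = 0.52). These genes and *Man2b1* (-0.12, adjusted p = 0.69) were the 3 without overlap. *Ctsa* was thus the member below control without overlap at both 24 h and 48 h, and it shares exonic bases with *Pltp* and *Neurl2* as given above. *Laptm5* had 528.68, 469.87 and 533.6 FPKM in control and 500.0, 498.74 and 601.48 FPKM in B-CKO libraries, which overlapped (0.06, interval -0.16 to 0.28).

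Other genes of the lysosome and of autophagy were counted in the same fits. Of 37 further acid hydrolases and their cofactors, 24 fell and 3 rose between 0 h and 24 h in control cells, with a median of -0.59. *Acp5* (tartrate-resistant acid phosphatase) had 122.46, 145.77 and 81.98 FPKM at 0 h and 18.99, 15.67 and 21.67 FPKM at 24 h (-2.55 ± 0.23, adjusted p = 0.00016). Of 32 further membrane and transport genes of the lysosome, 22 fell and 1 rose, with a median of -0.52. Of 33 autophagy genes, 23 fell and 2 rose, with a median of -0.74. *Map1lc3a*, which codes for an LC3 protein of the autophagosome, had 19.34, 22.01 and 27.05 FPKM at 0 h and 1.51, 1.3 and 1.46 FPKM at 24 h (-3.28 ± 0.14, adjusted p = 1e-05). These shares lay above the 30.7% of all genes that fell.

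The V-ATPase, the proton pump that acidifies the lysosome, was more divided. Of its 19 subunit genes, 7 fell and 4 rose, with a median of -0.15. *Tcirg1*, which codes for a membrane subunit of the pump, had 58.73, 57.65 and 46.22 FPKM at 0 h and 21.35, 19.75 and 22.6 FPKM at 24 h (-1.31 ± 0.11, adjusted p = 0.00012). Of 20 genes upstream of the MiT/TFE factors, 5 fell and 4 rose, with a median of -0.03. *Flcn* (folliculin, which acts on the Rag GTPases that bring these factors to mTORC1) had 27.59, 38.66 and 80.7 FPKM at 0 h and 12.99, 12.23 and 13.51 FPKM at 24 h (-1.70 ± 0.36, adjusted p = 0.0075). Of 4 cathepsin inhibitors, *Cst3* (cystatin C) fell, by 1.10 ± 0.18. The shares for the pump and for the upstream genes were thus closer to those of all genes than the share of the hydrolases.

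In B-CKO cells the same lists gave 25 lower and 3 higher of 37 hydrolases between 0 h and 24 h. They gave 22 and 1 of 32 membrane genes, 25 and 2 of 33 autophagy genes and 1 and 0 of 4 inhibitors. For the V-ATPase these were 8 and 5 of 19 genes, and for the upstream list 7 and 5 of 20. Over all 15551 genes tested, 32.3% were lower and 27.5% higher. Between genotypes at 24 h none of these lists had a called gene, compared with 15 of 15104 genes (0.0993%). With an unadjusted p under 0.05, 9.51% of all genes were lower in B-CKO and 6.79% higher. By that measure 6 of 37 hydrolases were lower and 1 higher, 8 of 32 membrane genes lower and 1 higher, and 5 of 33 autophagy genes lower and 1 higher. Of the V-ATPase genes 3 of 19 were lower, and of the upstream genes 1 of 19, with none higher in either list. *Gm2a* (the activator of ganglioside cleavage by hexosaminidase A) had 31.88, 29.24 and 30.24 FPKM in control and 25.87, 24.05 and 24.47 FPKM in B-CKO libraries at 24 h (-0.29, interval -0.39 to -0.18, adjusted p = 0.069). *Slc15a3* (a lysosomal histidine and peptide transporter) had 11.4, 9.55 and 10.12 FPKM in control and 8.07, 8.22 and 7.36 FPKM in B-CKO libraries (-0.35, adjusted p = 0.11). Both genes were below control in all 3 B-CKO libraries.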

How the data were processed

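The 18 RNA-seq libraries (splenic B cells of control and B-CKO mice before culture and at 24 h and 48 h in LPS, 3 in each group, 1 mouse per library) were grouped by the sample labels. A gene that bears on the check of the genotypes is not reported here. The authors aligned reads with bowtie2, used Cufflinks and RSEM for quantification, and deposited a table of FPKM keyed by NCBI gene ID. The submitters' processing notes name BWA, Bowtie2, RSEM, DESeq2 and mm10 with no version. Sequencing was on an MGI2000 per the labels and on HiSeq or Novaseq per the study's methods. Symbols came from RefSeq on GRCm38.p6 for 16512 IDs, and 33 IDs kept their number. Shared exonic bases were taken from GENCODE on GRCm38 and concern 9 of the 34 members.

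FPKM are not counts, so log2(FPKM + 1) was tested with limma 3.58.1 (R 4.3.3, lmFit and eBayes with a trend) within the groups compared. Genes at 0 in all compared libraries were left out, and p-values were adjusted by Benjamini-Hochberg over all genes tested, with 0.05 as threshold. Interactions used the 12 libraries of both time points. All intervals are 95% intervals from limma, and the fits were tested on simulated data. Fold changes on this scale understate changes of low genes. Depth in fragments is not given, and the most frequent ratio between low values of libraries of the same time point was between 0.959 and 1.057.

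Members and lists were chosen with earlier results of these data known. All 34 members were counted in every comparison. Values in every library were given for members called between genotypes or in an interaction, up to 6 per time point without overlap between genotypes at an unadjusted p under 0.05, the 4 members that rose most and the 4 that fell most among those called in each interval of control cells, and *Tfeb*, *Tfe3*, *Mitf* and *Lamp1*. Other values in single libraries were added for members or list genes described in the text.

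Control and B-CKO libraries share replicate numbers 1 to 3, and neither the meaning of the number nor whether the same mice gave all time points is given in the sources used here. For 0 h, the deviations from the group means of same-numbered libraries correlated across genes at 0.82, 0.43 and 0.75, so that the numbers pair the samples there. At 24 h the values were 0.07, 0.15 and 0.08 and at 48 h -0.05, 0.18 and 0.18. Alternatives were a pseudocount of 0.1, a mean of at least 1 FPKM, TPM, median ratio scaling, the number as a block (replicate block), 1 joint fit of the 18 libraries, eBayes with no trend and leaving out each library or number. The block together with the 1 FPKM filter was added after seeing the data.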

Additional observations from a re-analysis of the deposited data

How the results depend on the processing

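No called change of a member, and no difference with an unadjusted p under 0.05, turned its direction under the alternatives run. Some named values that did not pass the test did turn. Under TPM, *Lamp2* and *Tfe3* were at -0.0079 and -0.087 for 24 h minus 0 h in control cells and *Grn* at -0.0016 between genotypes at 24 h, and under median ratio scaling *Tfe3* was at 0.015 for 48 h minus 24 h. With a library or number left out, that change of *Tfe3* ran from -0.034 to 0.024, and the genotype differences ran from -0.73 to 0.46 for *Gla* at 0 h, from -0.040 to 0.017 for *Gla* and from -0.042 to 0.053 for *Grn* at 24 h, and from -0.030 to 0.13 for *Laptm5* at 48 h. Of the calls of members over time, at most 9 of 27 were lost in any single fit. The members called between 0 h and 24 h numbered 22 to 29 in control and 23 to 30 in B-CKO cells when a library or number was left out, between 24 h and 48 h 19 to 23 and 18 to 24, and over 48 h 18 to 28 and 19 to 27. Rescaling to TPM lowered the members' median change from -0.76 to -0.93 (24 h minus 0 h, control) and from -0.42 to -0.63 (48 h minus 0 h). Depth in fragments is not given, so the precision of low genes such as *Cd63* and *Mitf* cannot be set from counts.

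Counts of genes called over the whole table between genotypes moved with the settings, and the cause was not tested. At 0 h, 0 genes passed (313 at an unadjusted p under 0.05), and 2 with the 1 FPKM filter, 23 in a single fit of 18 libraries, 22 with block and filter, and 0 to 1 with a library or number left out. At 24 h, 15 passed, and 46 with a pseudocount of 0.1, 388 with the filter (2 members), and 0 to 8 with a library or number left out. At 48 h, 7 passed, and 29 with the filter, 11 in the single fit, and 0 to 6 with a library or number left out. Calls between 24 h and 48 h were 6820 in control and 6964 in B-CKO cells, and 4496 to 6404 and 4148 to 7124 with a library or number left out, lowest without replicate 3 and without replicate 1. The interactions had 0 calls, and with a library or number left out 0 to 2 (24 h minus 0 h), 0 to 3 (48 h minus 24 h) and 0 to 3 (48 h minus 0 h), the last also 1 under median ratio scaling and 3 in the single fit.

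With the replicate number as a block, 0 genes passed at 0 h, where the numbers pair the samples, 5 at 24 h and 3 at 48 h. Block and filter together gave 704 genes at 24 h, with the members *Laptm5*, *Ctsa* and *Ctsh* (3 members), and 116 at 48 h. The block left 26 members called in control and 29 in B-CKO cells for 24 h minus 0 h. *Glb1* and *Asah1* lost their calls in control cells.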
